A study of Mus musculus with 1790 samples.

Results

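The genes described are 7 serotonin receptor genes: Htr3a, Htr3b, Htr1a, Htr1b, Htr1f, Htr2a and Htr2c. They were chosen by name, out of 49915 distinct gene names over the 7 count tables of the series. Rows were found for all 7 at P15, at P30 and in the patch-seq table, for 6 in both droplet tables (not Htr2a), for 5 in the E14.5 tdTOM+/GFP+ table (not Htr1f or Htr2a) and for Htr3a alone in the E14.5 FlashTag+ table. Htr3a is also the gene whose regulatory sequence drives the GFP transgene used to sort the cells, so its presence in the sorted cells was favoured by the collection and is given as a description.

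The series profiled single mouse interneurons, the inhibitory neurons of the cortex, and their embryonic precursors, with an emphasis on neurogliaform cells (NGCs), which inhibit their neighbours by diffuse release of GABA. All cortical cells carried the Htr3a-GFP transgene and were GFP+. They also carried Hmx3-Cre and the R26tdTOM reporter, so that tdTOM+ cells had a history of Hmx3-Cre activity and are called born in the preoptic area (POA), whereas tdTOM- cells (Htr3a-GFP+/Hmx3-Cre;R26tdTOM-) are called born in the caudal ganglionic eminence (CGE). From the somatosensory cortex there were 390 cells at P15 (196 tdTOM+, 194 tdTOM-), 581 at P30 (301 tdTOM+, 280 tdTOM-) and 20 Dock5 and 27 Lsp1 cells, all tdTOM+, taken by patch pipette between P14 and P25. According to the methods of the study, the P15 and P30 cells came from the upper layers and the patched cells from all layers. At E14.5 there were 418 tdTOM+/GFP+ cells of the same genotype from the POA, 352 wild-type FlashTag+ POA cells, marked by a dye as recently divided progenitors, and a wild-type droplet library each of the POA (2106 cells) and the CGE (4115 cells). The labels give C57BL/6 for the wild-type embryos, while the methods of the study name both C57BL/6 and CD1 mice, and transgenic mice were kept on a C57BL/6 background.

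The authors gave each P15 and P30 cell a subtype label by machine learning against adult reference cells, from the same expression values. The patch-seq cells were labelled Dock5 or Lsp1 by a model trained on labelled P15, P30 and adult cells. In the text, Dock5+NGCs are tdTOM+ cells labelled Lamp5 Plch2 Dock5 (36 at P15, 76 at P30) and Lsp1+NGCs are tdTOM+ cells labelled Lamp5 Lsp1 (33 and 35). Core NGCs are these cells together (69 and 111), and core non-NGCs are tdTOM- cells of every other conclusive label (89 and 96). Most core non-NGCs had Vip, Sncg or Serpinf1 labels, and the rest had other Lamp5 labels. The label was inconclusive for 85 tdTOM+ and 81 tdTOM- cells at P15 and for 154 and 156 at P30. Cells of several brains were pooled at each age. The Cre and the reporter record a past of Hmx3 expression and not its present level: Hmx2 and Hmx3 had no count in the P15 cells. No cell was tied to an animal in the labels, so each group counted as 1 sample, and no test or p-value is given.

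Levels are CPM, counts scaled to 1000000 counts of the table, from counts summed over the cells of a group, with exact Poisson 95% intervals. Shares are of cells with at least 1 count, with Clopper-Pearson 95% intervals whose upper bound is given where no cell had a count, and thinned shares were taken after each cell was thinned to a common depth. Folds are log2 after adding 10 CPM to both groups. A gene is called when its fold was at least 1 log2 and its level at least 10 CPM in the higher group. The intervals cover counting error only and are narrower than the spread between cells, since few cells held most of the counts of several receptors. Cells held a median of 250506 counts at P15, 213229 at P30, 378452 (Dock5) and 1037400 (Lsp1) in patch-seq, 356990 and 283979 in the E14.5 tdTOM+/GFP+ and FlashTag+ cells, and 7571 and 5341 in the droplet post-mitotic cells of the POA and CGE. Within the core groups the label markers lay as labelled. The summed Lamp5, Ndnf and Reln level was 10056 CPM in core NGCs and 1773 CPM in core non-NGCs at P15, and the Vip, Calb2 and Crh sum was 331 against 7741 CPM. The defining gene of the Lsp1 label did not separate the NGCs at P15: Lsp1 was at 14.0 CPM in Lsp1+NGCs and 13.0 CPM in Dock5+NGCs at P15, and at 0 in the tdTOM- cells with that label. Nor did it at P30, at 13.5 CPM in 3 of 35 Lsp1+NGCs and 11.5 CPM in 5 of 76 Dock5+NGCs. In patch-seq it did, at 53.6 CPM in 21 of 27 Lsp1 cells and 5.02 CPM in 4 of 20 Dock5 cells. Dock5 was at 93.8 CPM in Dock5+NGCs and 50.0 CPM in Lsp1+NGCs at P15, and at 41.7 and 1.22 CPM at P30. In patch-seq Dock5 was at 4.78 CPM in Dock5 cells and 3.53 CPM in Lsp1 cells. Plch2, also in the Dock5 label, was at 147 CPM in Dock5+NGCs and 126 CPM in Lsp1+NGCs at P15. The order turned at P30 (114 and 267 CPM) and in patch-seq (14.4 and 39.1 CPM). Of the markers of other cells in the P15 core NGCs and core non-NGCs, astrocyte genes summed to 28.1 and 0.188 CPM (Aqp4 at 0 in both). Microglial genes summed to 0 and 0.0376 CPM. The astrocyte sum in core NGCs was above their levels of Htr3b and Htr2c. The part of these markers in the differences between these groups was not tested.

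Serotonin reaches the cortex through axons of the raphe nuclei and acts there through several receptor families. Htr3a encodes the subunit that forms the ligand-gated cation channel on its own, and Htr3b encodes a partner subunit that joins it. Htr1a, Htr1b and Htr1f encode receptors coupled to inhibitory Gi and Go proteins, with Htr1b best known at axon terminals. Htr2a and Htr2c encode receptors coupled to Gq and phospholipase C. In the cortex, Htr3a marks the interneurons that are neither Pvalb nor Sst cells.

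Htr3a and Htr3b lie next to each other on the minus strand of chromosome 9 (GRCm38, GENCODE M21). Htr3a spans 48899213 to 48911099 and Htr3b 48935008 to 48964990, with 23908 bases between them. Htr1b is on the same chromosome (81628291 to 81633828, minus strand), Htr1a on chromosome 13 (105443639 to 105448122, plus strand) in a single merged exon, Htr1f on chromosome 16 (64924729 to 65105854, minus strand), Htr2a on chromosome 14 (74640840 to 74709494, plus strand) and Htr2c on chromosome X (146962513 to 147197277, plus strand). Htr3a and Htr1b overlap Gm32335 and D430036J16Rik on the other strand. The C1 tables were counted by strand. Htr2c holds several microRNA genes within its span.

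RefSeq promoter entries (GRCm38.p6) matched 6 of the 7 genes. The 250 bases before the start of Htr3b (chr9:48964991-48965240, minus strand), Htr1b (chr9:81633833-81634082, minus strand) and Htr2c (chrX:146962263-146962512, plus strand) are shown, because these were the genes with an entry that differed past 1 log2 between core NGCs and core non-NGCs at both ages. They are written 5′ to 3′ on the gene's strand, and capitals mark a match to a searched motif.
Htr3b: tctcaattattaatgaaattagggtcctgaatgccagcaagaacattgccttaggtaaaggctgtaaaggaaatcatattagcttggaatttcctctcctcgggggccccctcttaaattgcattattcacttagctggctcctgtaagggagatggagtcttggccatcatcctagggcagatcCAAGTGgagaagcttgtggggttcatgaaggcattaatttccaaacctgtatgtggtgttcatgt
Htr1b: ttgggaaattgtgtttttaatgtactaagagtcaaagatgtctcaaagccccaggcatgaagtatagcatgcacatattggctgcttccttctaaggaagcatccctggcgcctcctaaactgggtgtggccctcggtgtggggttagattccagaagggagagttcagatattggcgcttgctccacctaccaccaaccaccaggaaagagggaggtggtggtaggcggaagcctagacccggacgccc
Htr2c: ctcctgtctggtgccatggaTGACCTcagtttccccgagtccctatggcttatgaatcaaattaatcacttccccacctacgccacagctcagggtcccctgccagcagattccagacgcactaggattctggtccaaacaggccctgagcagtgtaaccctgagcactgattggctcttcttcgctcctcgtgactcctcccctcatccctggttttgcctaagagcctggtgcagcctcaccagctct

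The motifs searched on both strands were TAATTA (a homeodomain core, in 4.8% of 32851 RefSeq promoters of this length), CAAGTG or its reverse CACTTG (an NK-type homeodomain core, in 11.6%), AGGTCA or TGACCT (a nuclear receptor core, in 14.0%) and GGGCGG or CCGCCC (the GC box, in 32.7%). They do not overlap each other. Htr3b held CAAGTG and Htr2c held TGACCT, and no searched motif was in the Htr1b window. These are matches of letters, at the frequencies given, and not binding sites.

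Core NGCs had less Htr3a, Htr3b and Htr2c than core non-NGCs at both ages, and more Htr1b. At P15, 4 of the 5 members with at least 10 CPM were called (Htr3a, Htr3b and Htr2c lower, Htr1b higher), where 13.8% of 9081 genes tested were called and the median fold over all of them was -0.03. The median member fold was -1.59. At P30, 5 of 5 were called (Htr2a higher as well), against 14.3% of 10323 genes and a median of 0.03, and the median member fold was -2.49. Both ages use the same label and sort rules but separate tables with different gene rows, so their values stand side by side only.

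**Figure D1:**
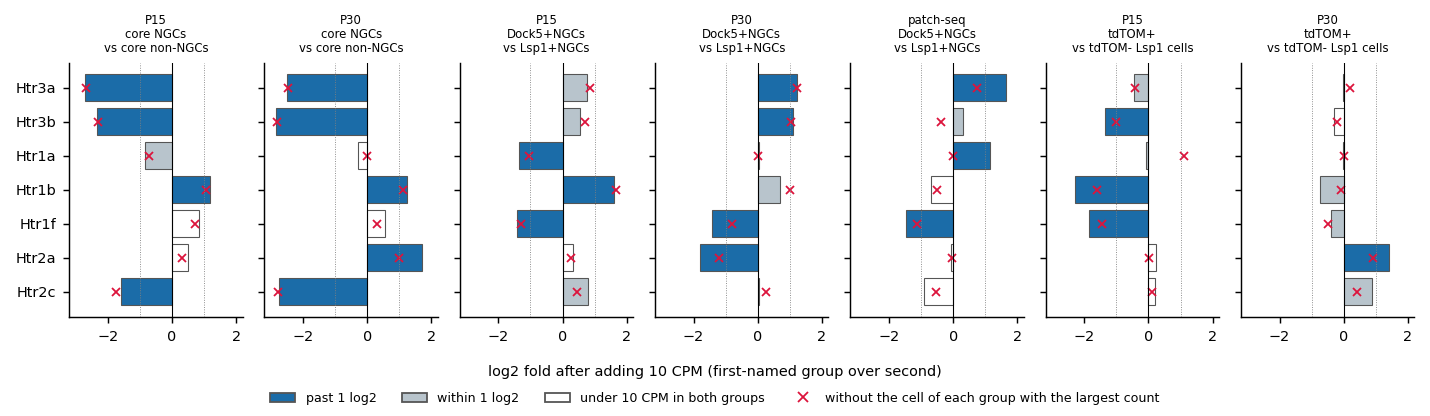
Log2 fold of each serotonin receptor gene after adding 10 CPM, first-named group over second, in the 7 postnatal comparisons. Blue bars are past 1 log2, grey bars within it and white bars under 10 CPM in both groups, red crosses are the fold without the cell of each group that held the largest count, and dotted lines mark 1 log2. Htr3a, Htr3b and Htr2c point to the left in the core comparison at both ages, from -1.59 to -2.84.

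Htr3a, the channel-forming subunit behind the GFP sort, was found in 388 of 390 cells at P15 and 575 of 581 at P30, a presence that the sort favoured. Vip, the marker of another class, was found in all 69 core NGCs at P15 (271 CPM) and all 111 at P30 (381 CPM). In patch-seq Vip was found in 3 of 20 Dock5 and 5 of 27 Lsp1 cells. Free RNA was not estimated for the P15 and P30 cells, so a count need not mean expression by that cell. The level of Htr3a still spread widely among the P15 and P30 cells. In P15 core NGCs it ranged from 0 over a median of 232 to 2193 CPM per cell, and in core non-NGCs from 30.3 over 1569 to 8826 CPM. At P30 the core NGCs ran from 0 over 251 to 1572 CPM and the core non-NGCs from 0 over 1303 to 8625 CPM. The single cells of the groups overlapped at both ages, while the medians were well apart. From the summed counts, the P15 core NGCs held 344 CPM (95% interval 336 to 353) and the core non-NGCs 2286 CPM (2268 to 2305), which is a fold of -2.70. The P30 values were 388 and 2218 CPM, a fold of -2.49.

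The difference in Htr3a was smaller between the whole sorts. With cells of every label and the inconclusive cells in both arms, tdTOM+ cells had 1097 CPM and tdTOM- cells 1817 CPM at P15, a fold of -0.72 that was no longer called, and 645 against 1551 CPM at P30, a fold of -1.25. Inconclusive tdTOM+ cells had 1121 CPM at P15 and 781 CPM at P30, above the core NGCs of the same sort. The NGC labels thus marked cells low in Htr3a among the tdTOM+ cells, and the labels were themselves drawn from the expression values.

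Over the labels with at least 5 cells, both sorts pooled, Htr3a was highest in Vip Crispld2 Kcne4 at both ages (5253 CPM at P15, 5306 CPM at P30). At P15 Vip Crispld2 Htr2c (3805 CPM) and Lamp5 Fam19a1 Tmem182 (1985 CPM) came next. At P30 Sncg Vip Nptx2 (3730 CPM) and Sncg Gpr50 (3610 CPM) did, and their counting intervals overlapped. At the low end Lamp5 Plch2 Dock5 (408 CPM) and Vip Ptprt Pkp2 (397 CPM) could not be told apart at P15, with Lamp5 Lsp1 lowest at 286 CPM. At P30 the low end was Lamp5 Plch2 Dock5 (482 CPM), Vip Ptprt Pkp2 (405 CPM), Lamp5 Krt73 (368 CPM) and Lamp5 Lsp1 (205.5 CPM). A low Htr3a level was not limited to the NGC labels, since 1 Vip label shared it at both ages. In this order the counting intervals of neighbours overlapped in 4 of 11 pairs at P15 and 5 of 15 at P30, and the ranges of their single cells from the first to the third quartile overlapped in 10 of 11 and 14 of 15. Single cells of neighbouring labels thus overlapped at nearly every step.

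By class, Htr3a was highest in the Sncg cells (4841 CPM at P15, 3206 CPM at P30), then the Vip cells (1958 and 1879 CPM) and the Lamp5 cells of labels other than the NGC pair (1344 and 794 CPM). The cell medians kept this order between Sncg and Vip, at 5402 against 1237 CPM at P15 and 2458 against 1085 CPM at P30. Between the other Lamp5 cells and the Vip cells they turned it at P15, at 1456 against 1237 CPM.

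**Figure D2:**
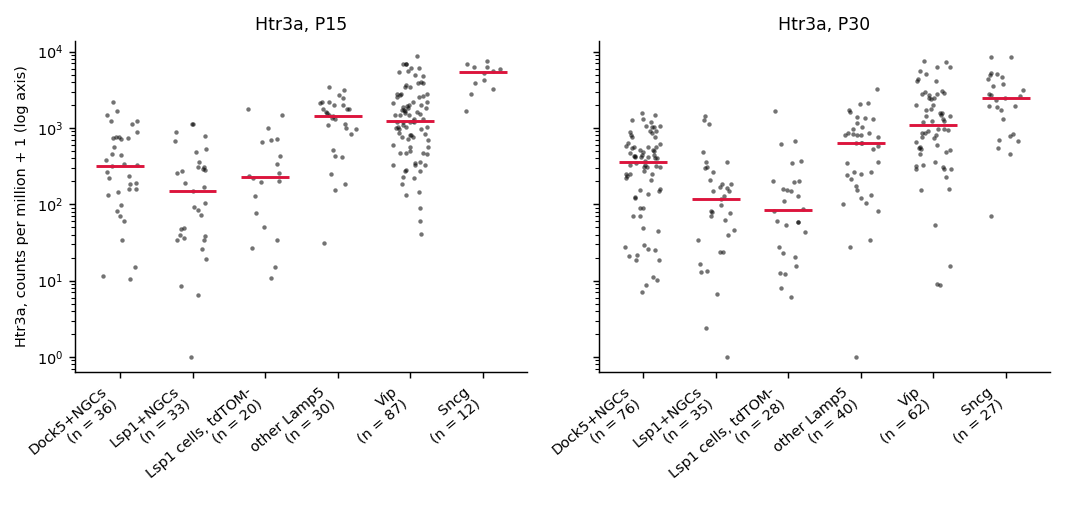
Htr3a per cell in CPM plus 1 (log axis) for 6 groups of labelled cells at P15 (left) and P30 (right); each point is a cell and the red line is the median. The Dock5 and Lsp1 groups sit lowest, with medians between 83.7 and 359 CPM, and Sncg cells highest, with medians of 5402 and 2458 CPM.

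Between the NGC subtypes, Htr3a was higher in Dock5+NGCs than in Lsp1+NGCs. At P15 the cells ran from 9.54 over a median of 319 to 2193 CPM in Dock5+NGCs and from 0 over 149 to 1138 CPM in Lsp1+NGCs. The sums were 429 CPM (417 to 442) and 252 CPM (242 to 262), a fold of 0.75 that was not called. At P30 the cell medians were 359 and 115 CPM and the sums 482 CPM (472 to 492) and 203 CPM (194 to 212), a fold of 1.21 that was called but came to 0.89 when the CPM of single cells were averaged instead. Single cells of both subtypes overlapped over most of their range at either age. Of the 6 members with at least 10 CPM in this comparison, 3 were called at P15 (Htr1b higher in Dock5+NGCs, Htr1a and Htr1f lower), where 19.3% of all genes were, and 4 at P30 (Htr3a and Htr3b higher, Htr1f and Htr2a lower), where 19.4% were.

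In patch-seq, Htr3a had 365 CPM (352 to 378) in 20 Dock5 cells and 109 CPM (106 to 112) in 27 Lsp1 cells, a fold of 1.65. This value rested largely on 1 Dock5 cell, which held 58.0% of the counts: without the largest cell of each group the fold was 0.74, and in cells of P15 to P18 it was 0.01. The cell medians were 111 and 130 CPM, and 15 of 20 and 22 of 27 cells held a count. The patch-seq call in Htr3a thus did not hold without the largest cell of each group. Here 3 of the 4 members with at least 10 CPM were called, where 18.3% of all genes were. Markers of glutamatergic neurons moved with the subtype there: Slc17a7, Slc17a6, Neurod6, Neurod2 and Tbr1 summed to 23.6 CPM in Dock5 cells (0 to 196 per cell) and 244 CPM in Lsp1 cells (0 to 559.6 per cell), with none of the 5 at 0. Pvalb and Sst, markers of other interneurons, summed to 62.1 CPM in Dock5 cells (0 to 368 per cell) and 357 CPM in Lsp1 cells (0 to 1842 per cell), with neither at 0. The mitochondrial share of counts moved with it too, at 3.34% in Dock5 cells and 7.51% in Lsp1 cells. The part of these in the result was not tested.

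Cells labelled Lamp5 Lsp1 were found in both sorts and had similar Htr3a in each. At P15 the sum was 252 CPM in 33 tdTOM+ cells and 349 CPM in 20 tdTOM- cells, a fold of -0.46, and at P30 it was 203 CPM in 35 and 208 CPM in 28, a fold of -0.03. The low Htr3a thus followed the Lsp1 label in the tdTOM- sort as well. Of the 5 members with at least 10 CPM, 3 were called at P15 (Htr3b, Htr1b and Htr1f, all lower in tdTOM+ cells), where 23.7% of all genes were, and 1 at P30 (Htr2a), where 30.4% were. A count of 1 in 5 lies below that background.

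Htr3b, the partner subunit that needs Htr3a to reach the membrane as a channel, was also lower in core NGCs. At P15 it was found in 28 of 69 core NGCs (40.6%), from 0 over a median of 0 to 484 CPM, and in 58 of 89 core non-NGCs (65.2%), from 0 over 10.6 to 4114 CPM. The sums were 20.3 CPM (18.3 to 22.3) and 141 CPM (136 to 146), a fold of -2.32, and the thinned shares were 21.9% and 55.1%. In the P30 cells Htr3b was found in 29 of 111 core NGCs (26.1%) and 46 of 96 core non-NGCs (47.9%), with sums of 9.24 CPM (8.17 to 10.4) and 128 CPM (123 to 132), a fold of -2.84, and thinned shares of 17.8% and 44.7%. Share and level pointed the same way at both ages, and the single cells of both groups overlapped. The whole sorts, with every label and the inconclusive cells, differed in Htr3b by -0.40 at P15 and -0.79 at P30, neither of which was called.

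The order of labels in Htr3b was not that in Htr3a. Vip Ptprt Pkp2, among the lowest labels in Htr3a, was highest in Htr3b at both ages (412 CPM at P15, 314 CPM at P30). Its cell median was not the highest: it was 7.82 CPM against 351 CPM in Vip Pygm C1ql1 at P15, and 11.9 CPM against 163 CPM in Vip Crispld2 Htr2c at P30. At P15 Vip Pygm C1ql1 stood level with it at 411.7 CPM, and their intervals overlapped. At P30 Vip Crispld2 Htr2c (243 CPM), Vip Pygm C1ql1 (229.8 CPM) and Vip Crispld2 Kcne4 (223 CPM) followed and overlapped each other in turn. Lamp5 Fam19a1 Pax6 was lowest at both ages (9.02 and 0.844 CPM), next to Lamp5 Plch2 Dock5 (27.9 CPM) and Lamp5 Lsp1 (28.2 CPM) at P15 and Lamp5 Lsp1 (2.00 CPM) at P30. Htr3b was found in 75.9% of Vip cells at P15 and 54.8% at P30, with 204.7 CPM and 185 CPM. Counting intervals of neighbours overlapped in 8 of 11 pairs at P15 and 10 of 15 at P30.

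Between the NGC subtypes, Htr3b was 25.5 CPM in Dock5+NGCs and 14.6 CPM in Lsp1+NGCs at P15 (15 and 13 cells with a count), a fold of 0.53 that was not called. The P30 level was 13.5 CPM (11.9 to 15.3) in 24 of 76 Dock5+NGCs and 0.915 CPM (0.418 to 1.74) in 5 of 35 Lsp1+NGCs, a fold of 1.11, with thinned shares of 25.8% and 11.8%. In patch-seq it was 11.6 CPM in 2 Dock5 cells, nearly all of it (98.9%) in 1 of them, and 7.48 CPM in 7 Lsp1 cells. At P15 the tdTOM- Lsp1 cells had 53.3 CPM in 7 cells against 14.6 CPM in 13 tdTOM+ cells, a fold of -1.37, and 1 cell held 59.6% and 58.9% of these counts. In cells captured in plate rows 1 to 20 that fold was -0.61.

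**Figure D3:**
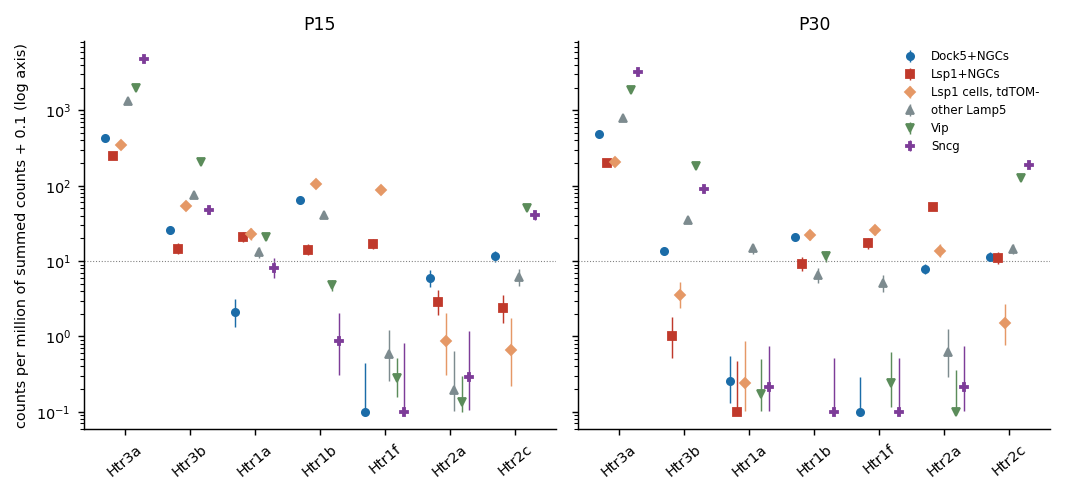
Level of each serotonin receptor gene in CPM of the summed counts plus 0.1 (log axis), with exact Poisson 95% intervals, in 6 groups of labelled cells at P15 (left) and P30 (right); the dotted line marks 10 CPM. Htr3a is highest in Sncg cells, Htr3b in Vip cells, and Htr1f passes 10 CPM only in the Lsp1 groups.

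Htr1b, the terminal Gi-coupled receptor, was the only member called higher in core NGCs at both ages. Among P15 cells Htr1b was found in 24 of 69 core NGCs (34.8%), up to 758 CPM in a cell, and in 12 of 89 core non-NGCs (13.5%), up to 304 CPM, while the median cell of each group was at 0. The sums were 40.1 CPM (37.4 to 42.9) and 12.1 CPM (10.8 to 13.5), a fold of 1.18, with thinned shares of 28.1% and 14.1%. In the P30 cells Htr1b was found in 19 of 111 (17.1%) and 5 of 96 (5.21%), with sums of 16.8 CPM (15.3 to 18.3) and 1.37 CPM (0.952 to 1.92), a fold of 1.23, and thinned shares of 14.9% and 3.53%. In plate rows 21 to 40 alone the folds were 0.98 at P15 and 0.94 at P30, just under the threshold. Over the whole sorts they were 0.04 and 0.81.

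Htr1b was higher in Lamp5 labels than in Vip labels at P15. Lamp5 Ntn1 Npy2r had 73.3 CPM, Lamp5 Plch2 Dock5 56.6 CPM, Lamp5 Fam19a1 Pax6 54.1 CPM (from 1 of its 7 cells), Lamp5 Lsp1 46.8 CPM and Lamp5 Fam19a1 Tmem182 13.9 CPM, and each of the 7 Vip labels was at or under 2.33 CPM. The middle 3 of these overlapped their neighbours in their counting intervals. At P30 the order was looser: Vip Pygm C1ql1 led at 22.4 CPM from 1 of its 8 cells, next to Lamp5 Plch2 Dock5 at 20.7 CPM and followed by Lamp5 Lsp1, and 14 of 15 neighbouring pairs overlapped. None of the 27 Sncg cells at P30 held a count, which allows a share of up to 12.8%.

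Between the NGC subtypes Htr1b was higher in Dock5+NGCs at P15, at 63.8 CPM (59.1 to 68.9) in 15 of 36 cells against 14.1 CPM (11.9 to 16.7) in 9 of 33, a fold of 1.61. The largest cell held 48.1% and 67.2% of these counts, and the fold was 0.82 with the CPM of single cells averaged and 0.92 after thinning. At P30 it was 20.7 against 9.05 CPM, a fold of 0.69. In patch-seq it went the other way at a low level, 0.122 CPM (1 count) against 6.35 CPM. Among the Lsp1 cells of P15, tdTOM- cells had 107 CPM (98.3 to 116) in 7 of 20 cells, 69.0% of it in 1 cell, and tdTOM+ cells 14.1 CPM, a fold of -2.28 that was -0.30 in plate rows 1 to 20. The Htr1b differences among NGC subtypes and sorts rested on few cells.

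Htr1f, a Gi-coupled receptor, had its highest level in cells labelled Lamp5 Lsp1. Of the cells with an Htr1f count, 17 of 29 at P15 and 10 of 26 at P30 had that label in either sort, and the inconclusive cells held most of the rest (5 tdTOM+ and 3 tdTOM- cells at P15, 5 and 7 at P30). At P30 inconclusive cells with a count were thus more numerous than Lsp1 cells with one. At P15 it was found in 9 of 33 Lsp1+NGCs, from 0 over a median of 0 to 108 CPM, and in 0 of 36 Dock5+NGCs, which allows a share of up to 9.74%. The Lsp1+NGC level was 16.9 CPM (14.4 to 19.7). The 0 counts in Dock5+NGCs allow up to 0.349 CPM (exact Poisson 95% interval). In the P30 cells Htr1f was found in 6 of 35 Lsp1+NGCs, up to 246 CPM, and in 0 of 76 Dock5+NGCs (a share of up to 4.74%), with 17.1 CPM (14.6 to 19.9) in Lsp1+NGCs and 0 counts, which allow up to 0.192 CPM, in Dock5+NGCs. At P30, 59.5% of the Lsp1+NGC counts were in 1 cell, and without it the fold after adding 10 CPM was -0.80. In plate rows 21 to 40 at P15 it was -0.93.

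Patch-seq, a separate collection, showed the same split of Htr1f between the subtypes. Its labels came from a model trained in part on the labelled P15 and P30 cells, so it is not an independent repeat. It was found in 13 of 27 Lsp1 cells (48.1%), at 17.9 CPM (16.8 to 19.1), and in 1 of 20 Dock5 cells with 1 count (0.122 CPM), a fold of -1.46. After thinning it was in 32.0% and 0% of cells, so the shares kept their order at equal depth. The fold was -1.12 without the largest cell, -1.69 without the deepest cell of each group and -1.49 in cells of P15 to P18. The markers of other neurons and the mitochondrial share given above were also higher in the Lsp1 group, and their part in the result was not tested.

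The Lsp1 label carried Htr1f in both sorts. Of the tdTOM- Lsp1 cells, 8 of 20 at P15 had it, at 86.4 CPM (78.7 to 94.8), and 4 of 28 at P30, at 25.6 CPM (22.1 to 29.6). The tdTOM+ against tdTOM- fold was -1.84 at P15, but -0.47 in plate rows 1 to 20, and -0.40 at P30. With both sorts pooled, Lamp5 Lsp1 was first of 12 labels at P15 (41.4 CPM in 32.1% of 53 cells) and first of 16 at P30 (20.7 CPM in 15.9% of 63 cells). It was the only label with at least 10 CPM of Htr1f at each age, and its interval did not overlap that of the next label (1.73 CPM at P15, 8.43 CPM at P30). The Vip Chat Htr1f label, named for this gene, had no Htr1f count in its 6 cells at P15 or its 4 cells at P30, which allow shares of up to 45.9% and 60.2%. In the core comparison Htr1f stayed under 10 CPM in both groups, at 8.10 against 0.188 CPM at P15 and 5.79 against 0.849 CPM at P30, and was not called.

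**Figure D4:**
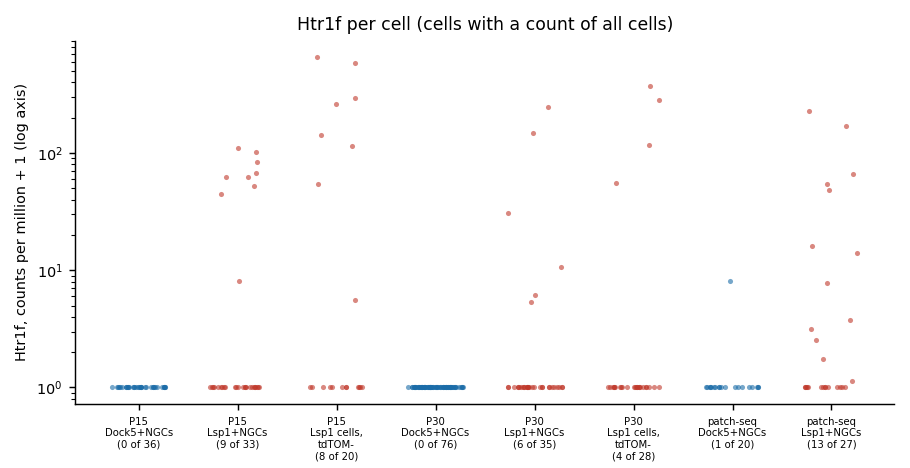
Htr1f per cell in CPM plus 1 (log axis) in Dock5+NGCs (blue) and in cells labelled Lamp5 Lsp1 (red) at P15, at P30 and in patch-seq; each point is a cell, and the cells with a count are given under each group. Of the Dock5 cells plotted, only 1, in patch-seq, held a count.

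Htr1a, the Gi-coupled receptor known as the main inhibitory serotonin receptor of cortical neurons, was sparse. Among P15 cells Htr1a was found in 11 of 69 core NGCs (up to 365 CPM, median 0) and 15 of 89 core non-NGCs (up to 997 CPM, median 0). The sums were 11.0 CPM (9.62 to 12.6) and 27.9 CPM (25.9 to 30.0), a fold of -0.85 that was not called. At P30 it was near absent from the core groups, with 2 of 111 cells (0.103 CPM) and 4 of 96 cells (2.22 CPM). Shares at P15 hardly differed between the groups, at 15.9% and 16.9%.

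Single cells set most other Htr1a values. At P15 Dock5+NGCs had 1.99 CPM (1.23 to 3.04) in 5 cells and Lsp1+NGCs 20.9 CPM (18.1 to 23.9) in 6 cells, a fold of -1.36, and the largest cell held 71.4% and 45.0% of these counts. In patch-seq the fold was 1.14, from 13.2 CPM in 2 Dock5 cells and 0.526 CPM in 2 Lsp1 cells, and without the largest cell of each it was 0.00. Vip Chat Htr1f led the labels at P15 with 122.5 CPM, all from 1 of its 6 cells, ahead of Vip Ptprt Pkp2 with 82.7 CPM in 27.8% of 18 cells. At P30 Lamp5 Krt73 (34.9 CPM) and Lamp5 Fam19a1 Tmem182 (19.5 CPM) led, and 9 of 16 labels had no count. The inconclusive tdTOM+ cells of P30 had 20.6 CPM, from 10 of 154 cells.

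Htr2c, a Gq-coupled receptor, was lower in core NGCs beside the Htr3 pair. Among P15 cells Htr2c was found in 9 of 69 core NGCs (13.0%), up to 278 CPM, and in 36 of 89 core non-NGCs (40.4%), up to 838 CPM, and the median cell of both groups was at 0. The sums were 7.06 CPM (5.95 to 8.32) and 41.4 CPM (39.0 to 44.0), a fold of -1.59, with thinned shares of 12.5% and 34.6%. In the P30 cells Htr2c was found in 22 of 111 (19.8%) and 39 of 96 (40.6%), with 11.2 CPM (9.99 to 12.5) and 132 CPM (127 to 136), a fold of -2.74, and thinned shares of 14.9% and 40.0%. The P30 call was kept in each of its alternative settings, down to -1.06 with 100 CPM added, and the whole sorts differed by -1.59. At P15 the whole sorts differed by -0.27, below the threshold.

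By class, Htr2c was found in 83.3% of 12 Sncg cells at P15 (40.6 CPM) and 59.3% of 27 at P30 (187 CPM), in 35.6% and 40.3% of Vip cells (50.8 and 129 CPM), and in 13.3% and 27.5% of the other Lamp5 cells (6.04 and 14.4 CPM). Sncg cells thus held it most often at both ages. The label named for the gene, Vip Crispld2 Htr2c, was not first in it. It was the third label at P15 (67.8 CPM), after Vip Chat Htr1f (103 CPM) and Vip Ptprt Pkp2 (81.8 CPM), and its interval overlapped that of its neighbours. At P30 it was seventh of 16 (110.2 CPM), with Sncg Vip Nptx2 (299 CPM) and Vip Pygm C1ql1 (212 CPM) leading. Vip Lect1 Oxtr was lowest at both ages (0.306 and 0.462 CPM). The inconclusive cells had 43.9 CPM (tdTOM+) and 46.3 CPM (tdTOM-) at P15 and 21.7 and 58.8 CPM at P30.

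Between the NGC subtypes Htr2c was not called in any collection. It was 11.5 CPM in 4 Dock5+NGCs and 2.27 CPM in 5 Lsp1+NGCs at P15 (fold 0.81), and 11.3 and 10.9 CPM at P30 (fold 0.03). In patch-seq it was 0.122 CPM in 1 Dock5 cell and 9.08 CPM in 7 Lsp1 cells, under 10 CPM in both.

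Htr2a, the other Gq-coupled receptor, was rare. At P15 it was under 10 CPM in both core groups (4.40 CPM in 7 cells, 0.0751 CPM in 2 cells). At P30 it was 23.1 CPM (21.4 to 24.9) in 10 of 111 core NGCs and 0.0404 CPM in 1 of 96 core non-NGCs, a fold of 1.72. A single cell at 1968 CPM held 58.1% of the core NGC counts, and without it the fold was 0.98. That cell was an Lsp1+NGC. Lsp1+NGCs had 52.8 CPM (48.3 to 57.5) in 8 of 35 cells and Dock5+NGCs 7.83 CPM in 2 of 76 at P30, a fold of -1.82 (-1.22 without the largest cell of each), with thinned shares of 20.6% and 3.03%. Among Lsp1 cells of P30 it was found in 5 of 28 tdTOM- cells (13.7 CPM, 82.7% in 1 cell), a fold of 1.41 that was 0.91 without the largest cells.

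The Htr2a counts of Lsp1 cells at P30 were not matched at the other collections. At P15 it was 5.87 CPM in 5 Dock5+NGCs and 2.79 CPM in 2 Lsp1+NGCs, and in patch-seq 0 against 0.470 CPM. Of the labels, 9 of 12 at P15 and 12 of 16 at P30 had no Htr2a count, and none of the 62 Vip cells of P30 had any (a share of up to 5.78%). Inconclusive cells of P15 had 13.3 CPM (tdTOM+, 94.5% of it in 1 cell) and 16.5 CPM (tdTOM-).

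Most cortical cells held counts of Htr3a and of 1 or more other members. The median was 2 of the 7 members per cell at P15 and at P30, and the same in core NGCs and core non-NGCs, and no cell of these ages held more than 5. At P15 every cell with a count of Htr3b, Htr1a, Htr1b, Htr1f, Htr2a or Htr2c also had Htr3a, as nearly all cells did. Patch-seq cells held a median of 1 (Dock5) and 2 (Lsp1) members, and at most 2 and 6.

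At E14.5 Htr3a was found in a minority of the cells sorted for its transgene. Of the 418 tdTOM+/GFP+ POA cells 141 held a count (33.7%, Clopper-Pearson 95% interval 29.2 to 38.5), from 0 over a median of 0 to 1947 CPM, with 50.5 CPM (49.4 to 51.6) in the sum. Of the 352 FlashTag+ cells 2 did (0.568%, 0.0689 to 2.04), with 2.08 CPM, 87.0% of it in 1 cell. After thinning to 169520 counts the shares were 27.9% and 0.694%, and the fold of the levels was 2.32. Htr3a was the 1 member with a row in both tables and was called, where 22.8% of all genes were. The groups differ in the sort, the genotype and the stage of the cells: progenitor markers summed to 237 CPM in tdTOM+/GFP+ and 6162 CPM in FlashTag+ cells and post-mitotic markers to 4977 and 848 CPM, and sort, genotype and stage cannot be told apart.

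In the droplet libraries Htr3a was higher in post-mitotic GABAergic-like cells, named from markers such as Dcx and Gad2, than in progenitor-like cells, and higher in the CGE than in the POA. In the POA it was found in 378 of 1558 post-mitotic cells (24.3%, 22.2 to 26.5; median depth 7571 counts) and 54 of 539 progenitor-like cells (10.0%, 7.62 to 12.9; median depth 7595), with 104 CPM (99.1 to 109) and 21.9 CPM (18.0 to 26.5), a fold of 1.83. In the CGE it was found in 1254 of 2738 (45.8%, 43.9 to 47.7; median depth 5341) and 256 of 1336 (19.2%, 17.1 to 21.4; median depth 7104), with 391 CPM (382 to 400.5) and 47.4 CPM (43.3 to 51.8), a fold of 2.80. After thinning the shares were 16.2% and 6.73% in the POA and 34.5% and 10.0% in the CGE. Both post-mitotic shares lay above the share of the progenitor-like cells of the same library, before and after thinning.

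Between the libraries, post-mitotic cells of the POA had 104 CPM and those of the CGE 391 CPM of Htr3a, a fold of -1.82, with thinned shares of 13.1% and 36.7% after 429 shallower CGE cells were left out. It was the only member with at least 10 CPM in each of the 3 droplet comparisons and was called in each, where 3.37% of all genes were called between the libraries, 8.03% between the POA classes and 10.8% between the CGE classes. Each region is 1 library, so region and library cannot be told apart. The libraries shared 12 barcodes, and without those cells the fold between them was -1.80.

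**Figure D5:**
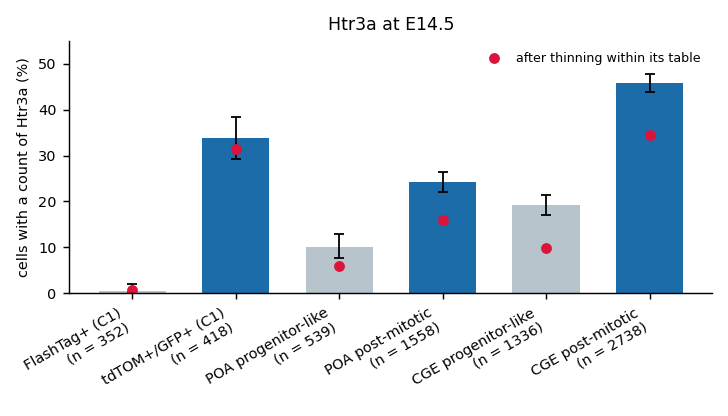
Share of E14.5 cells with a count of Htr3a in percent, with Clopper-Pearson 95% intervals, in the C1 collections and the classes of the droplet libraries; blue bars are GFP-sorted or post-mitotic cells, grey bars FlashTag+ or progenitor-like cells, and red dots the share after thinning within each table. The CGE post-mitotic cells are highest at 45.8% and the FlashTag+ cells lowest at 0.568%; C1 and droplet cells differ in depth and are not compared.

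Htr2c was the other member with a sizeable level at E14.5. In tdTOM+/GFP+ cells it was found in 110 of 418 (26.3%, 22.2 to 30.8), at 30.6 CPM (29.7 to 31.5), Htr3b in 40 (9.57%) at 8.43 CPM, Htr1b in 11 (2.63%) at 1.74 CPM and Htr1a in 4 (0.957%). Htr2c and Htr3a did not keep to the same cells: Htr2c was found in 38 of 141 cells with Htr3a (27.0%) and in 72 of 277 without (26.0%), at median depths of 366054 and 353682 counts. Htr3b was found in 15 of 141 (10.6%) and 25 of 277 (9.03%). None of the 4 or Htr3a was found in 183 of the 418 cells.

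In the droplets the members other than Htr3a were all under 10 CPM. Htr2c was found in 17 of 1558 POA post-mitotic cells (1.09%) and 6 of 2738 CGE ones (0.219%), and in 0 of 539 and 0 of 1336 progenitor-like cells, which limits only the share of cells with a count, to 0.682% and 0.276%, and not the share that expresses the gene. Free RNA in the droplets was not estimated, so these low shares are read against the progenitor-like cells alone. Htr1f was found in 3 POA post-mitotic cells (0.193%) and 35 CGE ones (1.28%), against 0 and 2 progenitor-like cells. Htr1b was found in 21 POA (1.35%) and 8 CGE (0.292%) post-mitotic cells, against 2 and 0 progenitor-like cells, and Htr3b in 16 of each (1.03% and 0.584%), against 4 of each. After thinning to 3250 counts the POA and CGE post-mitotic shares were 0.321% and 0.173% for Htr2c, 0.0642% and 0.650% for Htr1f and 0.385% and 0.173% for Htr1b. They were 0.257% and 0.260% for Htr3b and 0.0642% and 0.130% for Htr1a. The Htr1f share was lower in the POA library before and after thinning, and the Htr2c and Htr1b shares were higher in it. All of these rest on few cells and on 1 library per region, so no order between the regions is read for any of these members.

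Of 33 other serotonin genes listed (7 receptors, 10 for synthesis, uptake and breakdown, 3 receptor partners, 13 G proteins and effectors), some were called in the core comparison, where 13.8% of all genes were at P15 and 14.3% at P30. At P15, 0 of 2 other receptors with at least 10 CPM, 0 of 3 synthesis and uptake genes, 0 of 2 partners and 4 of 12 G protein and effector genes were. Kcnj9, a GIRK potassium channel subunit on which Gi-coupled receptors act, was higher in core NGCs (176 against 61.1 CPM, fold 1.39). Its relative Kcnj6 (4.10 against 19.0 CPM, -1.04), Gnai1 (180.4 against 388 CPM, -1.06) and Gnaz (64.5 against 147 CPM, -1.08), both inhibitory alpha subunits, were lower. At P30, 2 of 3 receptors, 1 of 3 synthesis genes, 0 of 3 partners and 2 of 12 G protein genes were called, all lower in core NGCs. They were Htr4 (0.0345 against 14.0 CPM, -1.26) and Htr7 (6.07 against 27.2 CPM, -1.21), both Gs-coupled receptors, Maoa, which breaks serotonin down (11.1 against 43.7 CPM, -1.35), Gnaz (28.3 against 79.9 CPM, -1.23) and Kcnj3, a GIRK subunit (84.4 against 201 CPM, -1.16). Gnaz was the gene of this list called at both ages. For the listed genes, here and below, no alternative settings were run. How far their folds rest on single cells was not tested.

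Between the NGC subtypes, Htr7 (20.8 against 0.103 CPM, fold 1.61), Gnai2 (86.0 against 32.9 CPM, 1.16) and Tph2, the synthesis enzyme of serotonergic neurons (31.4 against 9.91 CPM, 1.05), were higher in Dock5+NGCs at P15, and no listed gene was called at P30. Called at P15 were 1 of 2 receptors, 1 of 3 synthesis genes, 0 of 2 partners and 1 of 11 G protein genes. Over all genes the shares were 19.3% at P15 and 19.4% at P30. Fev and Slc6a4, which define serotonergic neurons beside Tph2, were at 0 in the P15 NGCs. In patch-seq Gnai2 was lower in Dock5 cells (49.1 against 117 CPM, -1.11), opposite to P15, as were Gnaz (17.3 against 90.3 CPM, -1.88) and Kcnj3 (22.7 against 63.0 CPM, -1.16). These were 3 of 11 G protein genes, with 0 of 3 synthesis genes and 0 of 3 partners called, against 18.3% of all genes. Among Lsp1 cells by sort, Tmem35a (39.9 against 110 CPM, -1.27), a chaperone of ligand-gated channels, and S100a10, a partner of Htr1b (0.103 against 41.5 CPM, -2.35), were lower in tdTOM+ cells at P15. They were 2 of 3 partners, and 0 of 1 receptors, 0 of 3 synthesis genes and 0 of 11 G protein genes were called. Over all genes the share was 23.7%. At P30 Htr5a (6.20 against 45.8 CPM, -1.78), Maoa (-1.54), Gnaz (-1.41) and Plcb4 (-1.17) were lower in tdTOM+ cells, and the transporter Slc29a4 (1.07) was higher. These were 1 of 2 receptors, 2 of 2 synthesis genes and 2 of 11 G protein genes, and 0 of 2 partners were called. Over all genes the share was 30.4%. Lists this short do not set these genes apart from all genes.

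At E14.5 Slc18a2, the vesicular monoamine transporter, was called together with Htr3a, at 105 CPM in 48.1% of tdTOM+/GFP+ cells and 3.52 CPM in 2.84% of FlashTag+ cells (fold 3.09), and Gnai2 was lower (268 against 646 CPM, -1.24). Called there were 1 of 4 synthesis genes, 0 of 3 partners and 1 of 10 G protein genes, where 22.8% of all genes were. No listed gene was called in the droplet comparisons.

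The genes most like each member were taken by Pearson's r of log2(CPM + 10) over the 12 labels of P15 and the 16 of P30, ranked by the smaller of both values. The points share cells, tables and label rules, and r is a description. For Htr3a these were Rgs12 (0.85 and 0.77), Ntrk3 (0.78 and 0.75) and Oxr1 (0.69 and 0.69). For Htr3b they were Ahi1 (0.76 and 0.80), Plekha5 (0.69 and 0.69) and Smc5 (0.85 and 0.66). Htr1b was most like Lamp5 itself (0.78 and 0.72), Ccnd3 (0.71 and 0.74) and Piga (0.75 and 0.70). Htr1f was most like Fam129a (0.99 and 0.80), Apol8 (0.99 and 0.74) and Sfrp1 (0.84 and 0.71), values that rest on the single label in which Htr1f passed 10 CPM. Htr2c was most like Synpr (0.62 and 0.66), Chst1 (0.61 and 0.76) and Serpine2 (0.60 and 0.74), and Htr1a most like Tsacc (0.90 and 0.70), Srebf1 (0.86 and 0.63) and Il17ra (0.70 and 0.63). For Htr2a, ranked at P30 alone, Gm15991, Amhr2 and Suclg2 stood at 0.99 or above, with the Lsp1 label as the high point.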

How the data were processed

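Single cells were captured on C1 chips or by patch pipette, or profiled in droplets. According to the methods of the study, the authors aligned C1 and patch reads with STAR to mm10, removed duplicates with UMI-tools and counted uniquely mapped exonic reads per gene by strand. The droplet reads went through Cell Ranger on mm10, and clusters that were not GABAergic were removed by the authors. Versions of STAR and UMI-tools are not given in the sources used here. The deposited values are raw counts per gene and cell, and subtype labels come from the labels of the samples. Those labels were assigned from the same expression values.

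Counts were summed over the cells of each group and divided by the group's total to give CPM. Tables were handled with pandas 2.3.3 and numpy 2.4.6 under Python 3.11.15, intervals computed with scipy 1.17.1 and plots drawn with matplotlib 3.10.9. Intervals are exact Poisson (levels) and Clopper-Pearson (shares) at 95%. Thinning used the depth at percentile 10 of the cells compared, and shallower cells were left out. Droplet cells were classed by which of 2 marker lists had more counts. No doublet caller was run, and the filters that the study gives for the droplet cells do not name doublets. Leaving out the top 5% of cells by counts was tried instead. There were 11 comparisons with no test, because no animal is named for any cell. Cells held 23365 to 991458 counts at P15, 18412 to 923652 at P30, 33826 to 15968484 in patch-seq, 100168 to 939213 in the E14.5 C1 tables and 2515 to 65782 in droplets. The C1 cells with Htr3a held on average 435 (P15) and 260.1 (P30) counts of it and the droplet cells 4.31 (POA) and 4.72 (CGE), so a C1 count is not an independent observation of a cell.

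The receptors named are the 7 members. Of the 33 other serotonin genes listed, those called where a member was called and the receptors of at least 10 CPM were to be named. The genes like a member are the 3 with the highest smaller Pearson r. Members and lists were chosen with earlier results of these data known. The steps were tested on simulated counts with known folds. The values of 1 marker list are not reported here.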

Additional observations from a re-analysis of the deposited data

Results flagged for a closer look

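Htr1a pointed opposite ways between the NGC subtypes in the P15 cells and in the patch-seq cells. The log2 fold of Dock5+NGCs over Lsp1+NGCs was -1.36 at P15 and 1.14 in patch-seq, and the difference between these folds was not tested. At P15 it rested on 5 and 6 cells with a count, and in patch-seq on 2 and 2. Of the patch-seq Dock5 counts of Htr1a, 99.1% were in 1 cell, and without the largest cell of each group the patch-seq fold was 0.00 and the P15 fold -1.04.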

How the results depend on the processing

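Of the 27 member calls, 4 were kept in every alternative run: Htr3a in the P30 core comparison, between the droplet libraries and between the CGE classes, and Htr2c in the P30 core comparison. A change of sign was scored for the called members alone, and none of their folds was reversed. Of 94 alternative counts of called members, 78 stayed within 1.5 times the reported count. With 100 CPM added in place of 10, the counts came to 2 (of 4) and 3 (of 5) in the P15 and P30 core comparisons, 0 (of 3 and of 4) between the P15 and P30 NGC subtypes, 0 (of 3 and of 1) between Lsp1 cells by sort at P15 and P30, 1 (of 3) in patch-seq, 0 (of 1) in the E14.5 C1 comparison and 0 (of 1) between the POA classes, since the added value shrinks every fold. Over the whole sorts, with cells of every label and the inconclusive cells in both arms, the core counts were 0 at P15 and 2 at P30. In plate rows 1 to 20 the count between Lsp1 cells by sort was 1 at P15 and 2 at P30. At P30 that count was 3 with 1 CPM added and 0 without the largest cell of each group, and the patch-seq count without it was 1. The cause of these changes was not tested. No paired analysis was possible because no animal or replicate number ties the cells of different groups. Depth limits the droplet values: at about 4 to 5 counts of Htr3a per cell that holds it, members under 10 CPM cannot be ordered.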

Other observations

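Hmx2, a gene of the POA lineage, was found in 78.0% of the E14.5 tdTOM+/GFP+ cells with Htr3a and in 69.0% of those without, and Hmx3 in 33.3% and 28.5%. In the droplet POA post-mitotic cells Hmx2 was found in 20.1% of cells with and 20.1% without Htr3a. Htr5a, the other Gi-coupled receptor above 10 CPM, had 15.5 CPM in core NGCs and 10.9 CPM in core non-NGCs at P15.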
